A study of Equus caballus with 68 samples.

Results

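The CC chemokines described here are 10 genes, CCL2, CCL3, CCL5, CCL8, CCL11, CCL14, CCL17, CCL20, CCL22 and CCL24, of 30371 gene entries in the expression table. They were taken by gene symbol, and each symbol matched 1 entry. The set was chosen by measured values as well as by name, because a rise of CCL8 and CCL11 in inflamed fluid was known from these libraries when the genes were listed. Expression was measured by RNA sequencing of bone marrow mononuclear cells (BMNC) from 8 Thoroughbred horses, 6 geldings and 2 mares aged 3 to 9 years. The cells were sequenced at isolation (0 hours, 8 libraries) and after culture in the horse's own synovial fluid. That fluid was either normal (SF), from healthy middle carpal joints, or inflamed (ISF), from radiocarpal joints in which synovitis had been induced with lipopolysaccharide. Both fluids were depleted of cells. They thus differed in joint as well as in inflammation, and the 2 cannot be told apart. More of the same fluid was added to a culture every 48 hours. Culture ran to 48 hours, 96 hours, 6 days or 10 days. Each fluid had 7, 8, 8 and 7 libraries at these 4 times, 1 per horse, which made 68 libraries in 9 groups. Moon had no library at 48 hours and Flash none at 10 days. The cells of a culture were sequenced together, so fewer cells of a type and less RNA per cell cannot be told apart.

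CC chemokines are small secreted proteins named for a pair of adjoining cysteines near the amino end. They bind G protein-coupled receptors, named CCR, on leukocytes and draw those cells along a concentration gradient. Monocytes and macrophages both make them and respond to them, and CC chemokines of the synovium are known for bringing monocytes and lymphocytes into an inflamed joint. Several ligands share a receptor, and most receptors bind several ligands.

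Levels are given as GeTMM, a read density per length of gene with a scale factor for each library. Comparisons of level between genes thus rest on the length of each entry. Those of CCL22, CCL14 and CCL20 were 282, 288 and 291 bases, that of CCL2 753 and that of CCL24 1741. How far such short entries shape the order and shares of the genes was not tested. Between 15653450 and 35971691 reads per library fell on genes, and 1 read on a gene of 1 kilobase was worth 0.0337 to 0.0979 GeTMM. The SF library of Moon at 6 days stood apart. Its difference between the fluids had a correlation of 0.158 with the mean difference of the other horses, against 0.581 to 0.791 for the other 7 horses at that time. At 96 hours the ISF library labelled Dealings correlated best with the SF library of Dreamer (r = 0.327, against -0.0150 with its own), and the one labelled Dreamer with that of Dealings (r = 0.414, against -0.217), in deviations from the group means. The ISF libraries of the other 6 horses each correlated best with their own SF library at that time. For the tested chemokines, differences between the fluids at 6 days are given with and without Moon's SF library. Those at 96 hours are given with and without the Dealings and Dreamer ISF libraries. The same holds for pathway genes outside the set that were called with no term for horse. Calls made only in a paired fit, with horse as a block, are given with all libraries and with the horse labels as they stand. So are changes of the fluid difference between times, apart from those of CCL2 and CCL22. The ISF library of Lurie at 6 days correlated better with the SF library of Catnip (r = 0.263) than with its own (r = 0.201). That of Ollie at 10 days correlated better with the SF library of Dreamer (r = 0.144) than with its own (r = 0.0859). All 7 macrophage markers (CD68, CD163, MRC1, GPNMB, MSR1, CSF1R and CD14) were read, and their mean log2(GeTMM + 1) lay between 3.67 and 4.43 at 0 hours and between 6.83 and 9.60 in the cultures. The mean of 5 T cell markers lay between 4.59 and 5.91 at 0 hours and between 0.849 and 5.42 in the cultures.

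The chemokines spanned a wide range of levels. At 0 hours the highest medians were those of CCL5 (109.3 GeTMM), CCL14 (79.1) and CCL3 (16.9), and CCL2 stood at 0.203. In every culture group CCL2 had the highest median of the 10 genes. It made up 37.7% to 66.9% of their summed mean level in SF and 76.6% to 78.8% in ISF. In SF at 96 hours CCL14 had the larger share by mean (43.1%, against 37.7% for CCL2). The medians there were close, at 238.7 GeTMM for CCL14 and 241.1 for CCL2. The sum of the 10 genes per library had a median of 225.5 GeTMM at 0 hours. Its median rose to 2429 in SF and 11884 in ISF at 10 days, and the ISF libraries held the higher median at each of the 4 times. By median CCL11 ran in the order 0 hours, the SF groups by time, then the ISF groups by time. The order of CCL2 differed from this only in that ISF at 48 hours lay below SF at 10 days. The ranges of neighbouring groups overlapped except between 0 hours and the next group, which was 1 of 8 neighbouring pairs for each gene, and for CCL8 all 8 pairs overlapped. CCL17, CCL20, CCL22 and CCL24 had no read in 18, 12, 29 and 21 of the 68 libraries, respectively. CCL24 reached 0.5 GeTMM in 6 libraries, fewer than the 7 required for testing, so 9 of the 10 chemokines were tested.

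**Figure D1:**
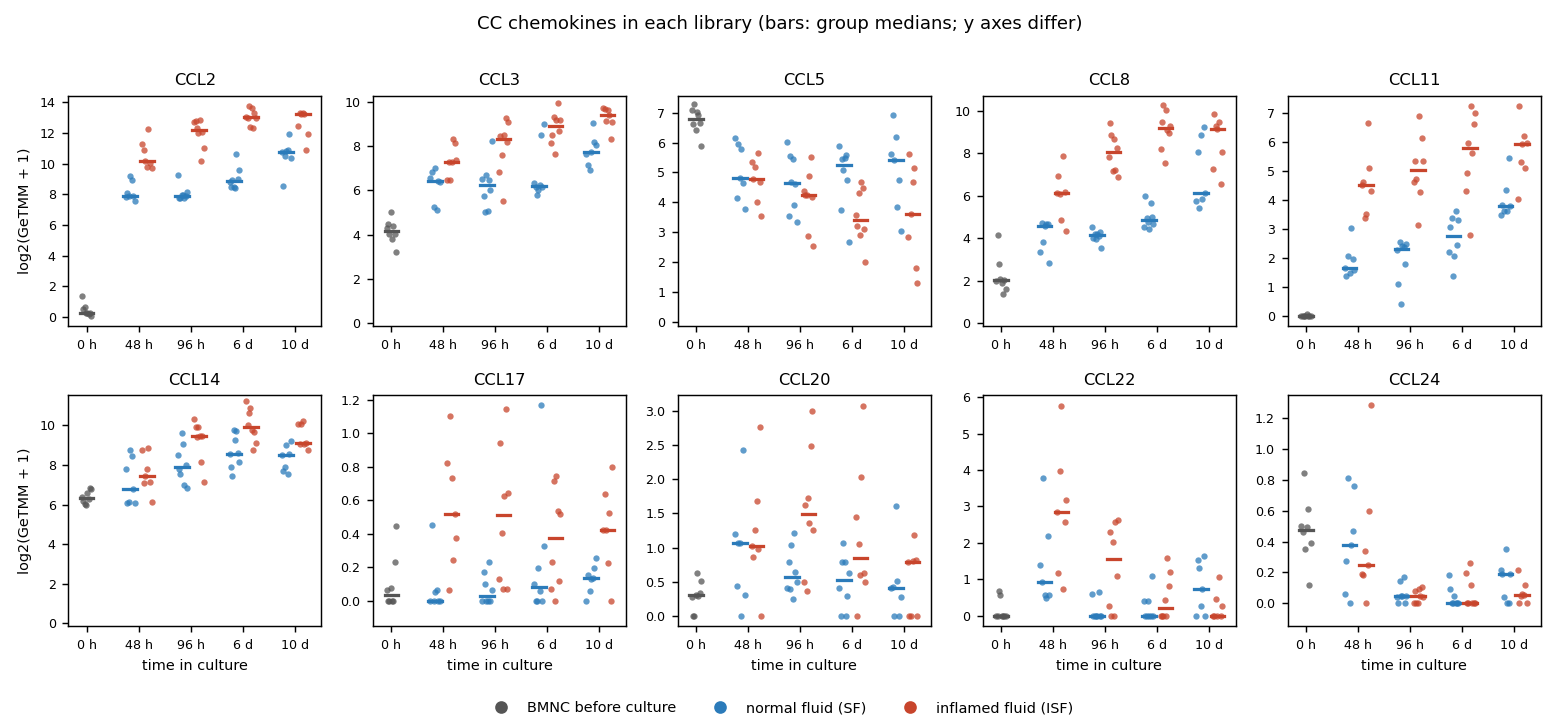
Each panel plots log2(GeTMM + 1) of 1 chemokine against time in culture, with a point per library in grey (BMNC at 0 hours), blue (SF) or red (ISF) and a bar at each group median. The y axes differ between panels. CCL2, CCL8 and CCL11 sit higher in ISF than in SF by median at every time, CCL5 falls from 0 hours, and CCL17 and CCL24 do not exceed 1.24 and 1.44 GeTMM in any library.

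CCL2, which attracts monocytes through CCR2, had the largest fitted change from 0 hours of the 9 tested genes. At 0 hours its level ran from 0.0553 to 1.59 GeTMM (median 0.203), or 42 reads in all over 8 libraries. In SF at 48 hours it ran from 191.6 to 577.3 (median 238.7), and in ISF from 839.6 to 4899 (median 1142). Every ISF library lay above every SF library at that time. At 96 hours SF libraries held 212.8 to 607.1 (median 241.1) and ISF libraries 1174 to 7472 (median 4786). At 6 days SF libraries held 342.0 to 1596 (median 468.0) and ISF libraries 5264 to 13874 (median 8317). The fluids did not overlap at 96 hours or 6 days, and the highest SF value at 6 days was that of Moon, without which the SF libraries reached 784.2. At 10 days SF libraries held 372.3 to 3961 (median 1756) and ISF libraries 1941 to 10136 (median 9855), and the groups overlapped.

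On the log2(GeTMM + 1) scale CCL2 was higher in ISF than in SF by 2.39 ± 0.40 (SE), 3.94 ± 0.37, 4.01 ± 0.37 and 2.09 ± 0.40 at the 4 times in order. These differences are a description, as are those of the other chemokines between the fluids, because that comparison was used in choosing the set. ISF was higher in 7 of 7, 8 of 8, 8 of 8 and 6 of 7 horses. The exception was Ollie at 10 days, whose SF culture had the highest CCL2 of the SF group (3961) and whose ISF culture had the lowest of the ISF group (1941). Without Ollie the difference at 10 days was 2.61 ± 0.42.

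Over time CCL2 rose from 0 to 48 hours in both fluids. The change was 10.13 ± 0.38 in ISF (FDR = 3.97e-32) and 7.74 ± 0.38 in SF (FDR = 5.14e-26), with a rise in 7 of 7 horses in each. It rose again in ISF from 48 to 96 hours (1.41 ± 0.38, FDR = 0.00528, 7 of 7 horses) but did not pass in SF over that interval (-0.14 ± 0.38, FDR = 0.847). The next step in ISF, from 96 hours to 6 days, was 1.06 ± 0.37 with a rise in 8 of 8 horses and an FDR of 0.0720, or 0.0497 with horse as a block in a paired fit. In SF a later rise stood between 6 and 10 days (1.51 ± 0.38, FDR = 0.0140, 7 of 7 horses). That call was lost without Lurie (FDR = 0.0560), without Ollie (FDR = 0.0944) and when only these groups were fitted (FDR = 0.197).

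CCL8, a ligand of several monocyte and eosinophil receptors, was present before culture at 1.58 to 16.6 GeTMM (median 3.05), with the highest value in Dealings. In SF it ran from 6.22 to 25.7 (median 22.8) at 48 hours and from 10.8 to 21.8 (median 16.8) at 96 hours. It then ran from 20.8 to 63.1 (median 28.3) at 6 days and from 42.5 to 612.9 (median 69.7) at 10 days. The SF cultures thus spread out at 10 days, where the 2 highest libraries held 463.3 and 612.9. In ISF it ran from 19.1 to 236.0 (median 69.1) at 48 hours and from 119.6 to 692.3 (median 267.5) at 96 hours. It ran from 187.7 to 1244 (median 586.6) at 6 days and from 93.0 to 915.3 (median 568.3) at 10 days. Every ISF library lay above every SF library at 96 hours and 6 days, and the fluids overlapped at 48 hours and 10 days.

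The mean of CCL8 was 18.0 ± 8.19 GeTMM (SD, n = 7) in SF and 87.2 ± 73.4 (n = 7) in ISF at 48 hours, a ratio of 4.86. The ratio of means was then 19.0, 19.2 and 2.13 at the later times. On the log2 scale the differences were 1.96 ± 0.51 (SE), 3.94 ± 0.48, 4.10 ± 0.48 and 1.47 ± 0.51. ISF was higher in 7 of 7, 8 of 8, 8 of 8 and 6 of 7 horses. Ollie was again the exception at 10 days, with 612.9 GeTMM in SF and 93.0 in ISF, the highest SF and the lowest ISF value of that time. Without Ollie the difference at 10 days was 2.16 ± 0.54. Across tested genes the difference between the fluids in Ollie at 10 days had a correlation of 0.624 with the mean of the other horses, against 0.490 to 0.702 for each of the other 6. At 96 hours the difference was 3.57 ± 0.51 when the Dealings and Dreamer ISF cultures were set aside, and at 6 days it was 4.20 ± 0.50 with Moon's SF culture set aside.

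The choice of the set rested on a rise of CCL8 and CCL11 in inflamed fluid, not on their course over time in SF. SF was the other side of the comparison between the fluids, so SF tests of both genes were not wholly separate from that choice. In SF, CCL8 rose from 0 to 48 hours by 1.85 ± 0.49 (FDR = 0.00149, 7 of 7 horses) and from 6 to 10 days by 2.04 ± 0.49 (FDR = 0.00992, 7 of 7 horses). The net rise from 0 hours to 10 days was 4.81 ± 0.49 (FDR = 3.43e-13, 7 of 7 horses). The later step was lost without Lurie (FDR = 0.0725), without Ollie (FDR = 0.0851) and when only the 6-day and 10-day groups were fitted (FDR = 0.178). In ISF the corresponding values are a description, with 3.81 ± 0.49, 2.0 ± 0.49, 1.06 ± 0.48 and -0.59 ± 0.49 over the successive steps from 0 hours.

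CCL11, or eotaxin, attracts eosinophils through CCR3. Before culture it was listed at 0 in 7 of 8 libraries, and the remaining library held 1 read. A count of 3 reads, the most that a count of 0 allows, would be 0.0884 to 0.157 GeTMM in those 7 libraries, with counting error alone considered. In SF its level ran from 1.61 to 7.26 (median 2.14) at 48 hours and from 0.343 to 4.85 (median 3.99) at 96 hours. It then ran from 1.62 to 11.4 (median 5.96) at 6 days and from 10.2 to 43.1 (median 12.9) at 10 days. In ISF the ranges were 9.34 to 100.1 (median 21.8) and 7.81 to 118.0 (median 32.6) at the 2 earlier times, and 5.89 to 150.1 (median 54.8) and 15.5 to 148.7 (median 60.2) at the 2 later ones. Every cultured library thus held CCL11 reads, and the fluids did not overlap at 48 or 96 hours. At 6 days 7 of 8 ISF libraries exceeded the whole SF group, and the lowest was that of Flash, which also had the lowest SF value.

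The mean of CCL11 in ISF over that in SF was 10.4, 13.3, 10.7 and 3.56 at the 4 times. On the log2 scale the differences were 2.7 ± 0.49, 3.14 ± 0.46, 2.86 ± 0.46 and 1.67 ± 0.49. ISF was higher in all horses at 48 hours, 96 hours and 6 days and in 6 of 7 at 10 days, where Ollie held 43.1 in SF and 33.5 in ISF. Without Ollie the difference at 10 days was 2.00 ± 0.54. In SF, CCL11 rose from 0 to 48 hours by 1.87 ± 0.47 (FDR = 8.24e-04, 7 of 7 horses) and by 4.01 ± 0.47 from 0 hours to 10 days (FDR = 3.61e-11, 7 of 7 horses). Since it had 1 read at 0 hours, the size of these changes depends on the pseudocount of 1, and no fold is given. The step from 6 to 10 days in SF was 1.33 ± 0.47 with an FDR of 0.0823, or 0.0459 with horse as a block.

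The mean log2 level of the 5 fibroblast or stromal markers (COL1A1, COL1A2, COL3A1, DCN and LUM) ran from 0 to 9.39 in the cultures. It was higher in SF than in ISF by median at each of the 4 times, with 2.59 in SF and 0.140 in ISF at 10 days. Over the 68 libraries its correlation was 0.112 with CCL8 and 0.0163 with CCL11. The mean of the macrophage markers had correlations of 0.729 with CCL8 and 0.671 with CCL11 over the same libraries, which share horses, fluids and times. The part of either cell type in the result was not tested.

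**Figure D2:**
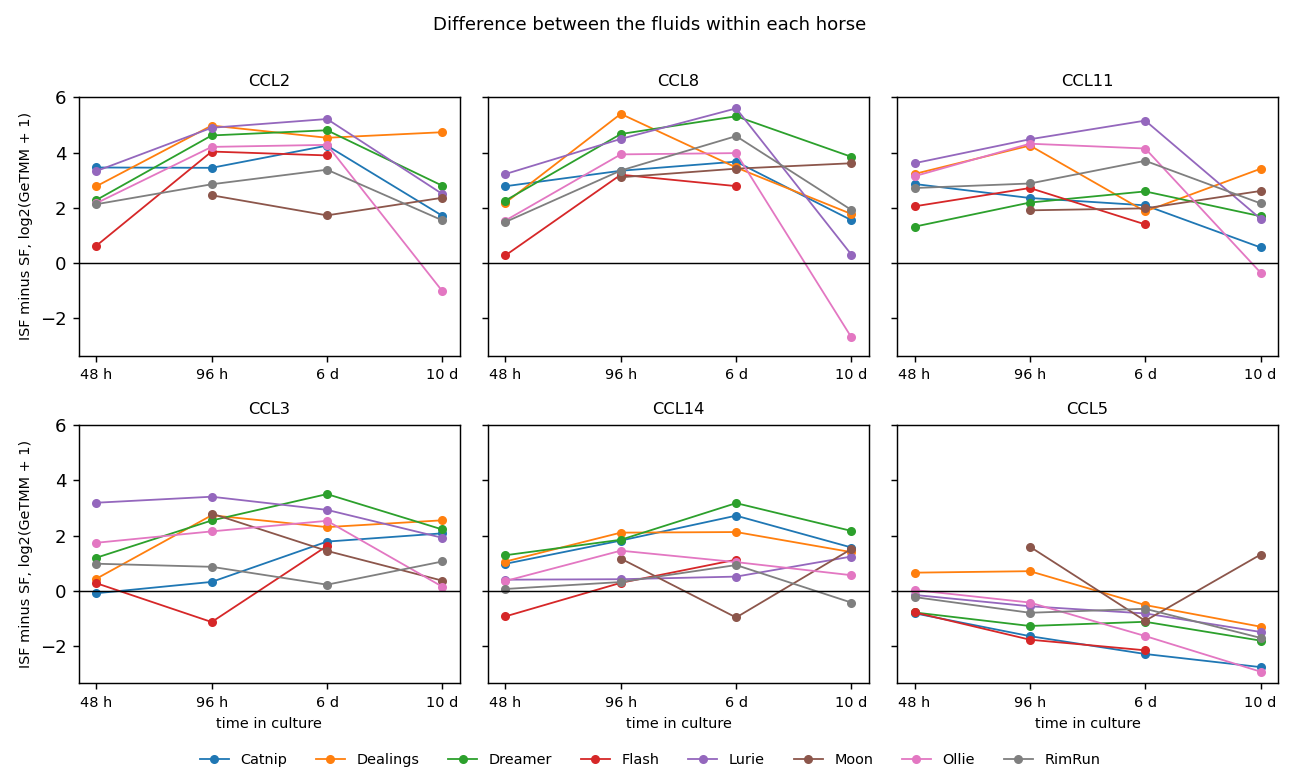
Each line follows 1 horse, and the y axis gives ISF minus SF in log2(GeTMM + 1) for 6 chemokines against time in culture, with a line at 0. CCL2, CCL8 and CCL11 lie above 0 in every horse until 6 days, and at 10 days Ollie falls below 0 for all of them, while CCL5 lies below 0 in every horse at 6 days.

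CCL3, known as macrophage inflammatory protein 1 alpha, and CCL14, a plasma chemokine that acts on CCR1 once processed, had smaller log2 differences between the fluids than CCL2, CCL8 and CCL11 up to 6 days, which were not tested against each other. CCL3 held 8.27 to 31.0 GeTMM at 0 hours (median 16.9). By 10 days it held 118.8 to 520.4 in SF (median 208.4) and 319.9 to 840.2 in ISF (median 670.3). The groups overlapped at all 4 times. ISF was higher by 1.10 ± 0.46 (6 of 7 horses), 1.71 ± 0.43 (7 of 8), 2.04 ± 0.43 (8 of 8) and 1.48 ± 0.46 (7 of 7) at the 4 times. The highest SF values were those of RimRun at 96 hours (299.9) and 6 days (501.1) and of Moon at 10 days (520.4). Whether unnamed genes close in sequence to CCL3 took part of its reads was not tested. CCL3 rose from 0 to 48 hours by 3.18 ± 0.44 in ISF (FDR = 9.82e-09) and by 2.08 ± 0.44 in SF (FDR = 8.13e-05), in 7 of 7 horses each. No later interval passed for it in either fluid, and the net rise to 10 days was 5.13 ± 0.44 in ISF (FDR = 3.22e-16) and 3.66 ± 0.44 in SF (FDR = 8.11e-11).

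CCL14 held 62.4 to 114.6 GeTMM at 0 hours (median 79.1). Its medians in SF were 108.7, 238.7, 380.3 and 363.4 at the 4 times, and in ISF 172.3, 710.7, 957.4 and 552.8. The difference between the fluids was 0.46 ± 0.45 (6 of 7 horses higher in ISF), 1.18 ± 0.42 (8 of 8), 1.33 ± 0.42 (7 of 8) and 1.15 ± 0.45 (6 of 7). The groups overlapped at all times. CCL14 rose in ISF from 0 to 48 hours (1.21 ± 0.44, FDR = 0.0156, 6 of 7 horses) and from 48 to 96 hours (1.62 ± 0.44, FDR = 0.00479, 7 of 7 horses). The earlier of these steps was lost without Catnip (FDR = 0.0689) and without Lurie (FDR = 0.0595). In SF no single interval passed, although the net rise to 10 days did (1.95 ± 0.44, FDR = 7.77e-05, 7 of 7 horses). With horse as a block, the SF step from 48 to 96 hours passed as well (0.90 on the log2 scale, FDR = 0.0216, 7 of 7 horses).

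CCL5, also called RANTES and made mainly by T cells and natural killer cells, ran the other way. It held 58.3 to 153.6 GeTMM at 0 hours (median 109.3). In SF its medians were 26.9, 24.0, 37.4 and 41.7 GeTMM at the 4 times, and in ISF 26.6, 18.0, 9.60 and 11.2. The spread within a group was wide, from 1.49 in RimRun to 48.5 in Dealings in ISF at 10 days, and the fluids overlapped at every time. RimRun had the lowest CCL5 in all 9 groups. CCL5 fell from 0 to 48 hours in ISF (-1.99 ± 0.53, FDR = 0.00116) and SF (-1.69 ± 0.53, FDR = 0.00680), in 7 of 7 horses each. The net change to 10 days was -3.16 ± 0.53 in ISF (FDR = 3.31e-07, 7 of 7 horses lower) and -1.63 ± 0.53 in SF (FDR = 0.00541, 6 of 7 horses lower).

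Between the fluids CCL5 differed by -0.30 ± 0.55, -0.52 ± 0.51, -1.29 ± 0.51 and -1.53 ± 0.55 at the 4 times. ISF was lower in 5 of 7, 6 of 8, 8 of 8 and 6 of 7 horses. T cell markers moved in the same direction. The summed level of CD3D, CD3E, CD3G, CD2 and LCK was 127.1 to 320.7 GeTMM at 0 hours. At 6 days it was 28.6 to 227.8 in SF and 8.57 to 47.3 in ISF, and at 10 days 23.5 to 198.7 in SF and 4.33 to 14.8 in ISF. None of these 5 markers was at 0 throughout a group. The summed level of 5 natural killer markers (NKG7, PRF1, KLRD1, NCR1 and EOMES) was 71.2 to 137.2 at 0 hours, 124.1 to 247.4 in SF and 141.4 to 308.0 in ISF at 48 hours, and 3.34 to 32.5 in SF and 4.19 to 12.9 in ISF at 10 days. Over the 68 libraries the correlation of CCL5 with the mean of the T cell markers was 0.812 and with that of the natural killer markers 0.684, on libraries that share horses, fluids and times. The part of these cells in the level of CCL5 was not tested.

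**Figure D3:**
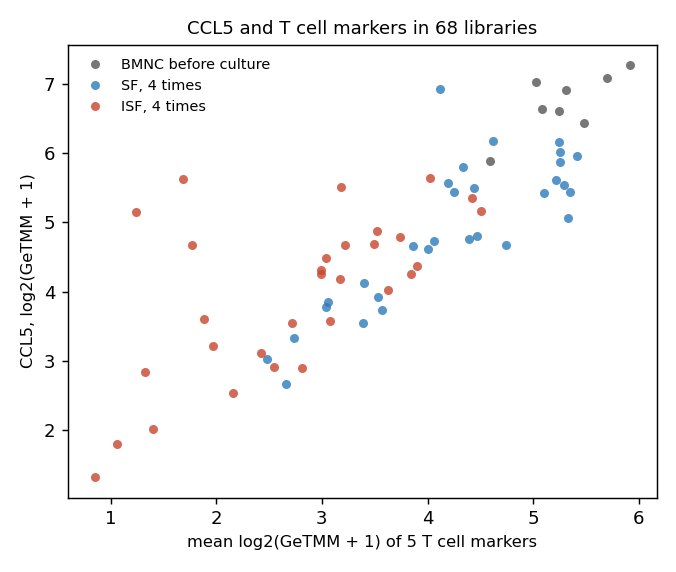
CCL5 in log2(GeTMM + 1) is plotted against the mean log2(GeTMM + 1) of 5 T cell markers, with a point for each of the 68 libraries in grey (0 hours), blue (SF) or red (ISF). The points run from low values in ISF to high values at 0 hours (r = 0.812).

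CCL22 and CCL17, which both act on CCR4 and are made by dendritic cells and macrophages, were near 0 before culture. CCL22 had 5 reads in all at 0 hours. At 48 hours it had 2 to 68 reads in SF, or 0.409 to 12.7 GeTMM (median 0.915), and 4 to 305 reads in ISF, or 0.662 to 53.2 GeTMM (median 6.20). ISF was higher in 7 of 7 horses at that time, and the groups overlapped. By 96 hours 6 of 8 SF libraries had no CCL22 read, while ISF libraries held 0 to 5.2 GeTMM (median 2.11). By 10 days the order of the medians had turned, with 0.666 in SF and 0 in ISF, on 36 and 8 reads in all. ISF was lower in 4 of 7 horses and higher in 2 at that time. The log2 differences were 1.47 ± 0.45, 1.21 ± 0.42, 0.26 ± 0.42 and -0.53 ± 0.45 over the 4 times.

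Of the tested chemokines, CCL22 alone was called as rising over one interval and falling over another in the same fluid. It rose from 0 to 48 hours by 2.73 ± 0.44 in ISF (FDR = 3.08e-07, 7 of 7 horses) and by 1.26 ± 0.44 in SF (FDR = 0.0147, 6 of 7 horses). It fell from 48 to 96 hours in ISF (-1.52 ± 0.44, FDR = 0.00845, 6 of 7 horses) and SF (-1.26 ± 0.44, FDR = 0.0245, 7 of 7 horses). The rise in SF was lost without Dreamer (FDR = 0.0803) and without Ollie (FDR = 0.0642), and the fall in SF without Dreamer (FDR = 0.180) and without Ollie (FDR = 0.105). The fall in ISF was lost without Dreamer (FDR = 0.0779), without Flash (FDR = 0.0602) and when only these groups were fitted (FDR = 0.113). The mean of the 5 dendritic cell markers (FLT3, ZBTB46, LAMP3, CLEC9A and XCR1) had medians of 1.75 and 1.34 in SF and of 1.58 and 1.06 in ISF at 48 and 96 hours, on the log2 scale, and its part in the result was not tested.

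The highest CCL17 value in any library was 1.24 GeTMM, or 16 reads, in Moon in SF at 6 days. Its reads summed over the group were 11, 10, 29 and 16 in SF and 81, 84, 58 and 54 in ISF at the 4 times. It reached 0.5 GeTMM in 12 libraries, 11 of them ISF and 1 SF, so it entered the test through the fluid in which it was high. Its changes in ISF are therefore a description, with 0.45 ± 0.14 on the log2 scale from 0 to 48 hours and 0.33 ± 0.14 from 0 hours to 10 days, each higher in 6 of 7 horses. No interval passed in SF.

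CCL20, the ligand of CCR6, held 0 to 0.544 GeTMM at 0 hours, 9 reads in all. In culture its medians lay between 0.323 and 1.09 GeTMM in SF and between 0.732 and 1.82 in ISF. Single libraries went higher, with 7.01 in Ollie at 96 hours and 7.43 in Moon at 6 days, both in ISF. It rose from 0 to 48 hours in ISF by 0.93 ± 0.34 (FDR = 0.0168, 6 of 7 horses), and this was lost without Flash (FDR = 0.0532) and without Ollie (FDR = 0.0756). ISF was higher than SF in 5 of 7, 7 of 8, 5 of 8 and 3 of 7 horses, by 0.30 ± 0.35, 0.89 ± 0.33, 0.67 ± 0.33 and 0.05 ± 0.35.

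CCL24, or eotaxin 2, had its highest group median at 0 hours, where it held 0.0850 to 0.799 GeTMM (median 0.393), 92 reads in all. The highest single value, 1.44 GeTMM or 40 reads, was that of RimRun in ISF at 48 hours. It held 88 reads in SF and 81 in ISF at 48 hours, and 8 to 24 reads in each later group. From 0 hours to 10 days it was lower in 7 of 7 horses in each fluid. It was not tested, so these counts are a description.

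At 48 hours, 3 of the 9 tested chemokines (CCL2, CCL8 and CCL11) passed an FDR of 0.05 as higher in ISF, where 0.872% of all tested genes were higher and 0.81% lower. At 96 hours 5 of 9 were higher, with CCL3 and CCL17 added, against 6.16% higher and 4.3% lower of all genes. At 6 days 5 were higher (CCL2, CCL3, CCL8, CCL11 and CCL14) and CCL5 was lower, against 16.7% and 13.6%. At 10 days 4 were higher (CCL2, CCL3, CCL8 and CCL11) and CCL5 was lower, against 9.95% and 10.8%. With horse as a block 5, 8, 6 and 6 of the 9 passed. With the Dealings and Dreamer ISF cultures set aside 4 of 9 passed at 96 hours, and with Moon's SF culture set aside 5 of 9 passed at 6 days. With that ISF pair set aside the log2 differences at 96 hours were 3.75 ± 0.40 for CCL2, 3.14 ± 0.50 for CCL11, 1.68 ± 0.47 for CCL3, 1.03 ± 0.46 for CCL14 and -0.57 ± 0.56 for CCL5. For CCL17, CCL20 and CCL22 they were 0.38 ± 0.15, 1.07 ± 0.35 and 1.28 ± 0.45. With Moon's SF culture set aside those at 6 days were 4.24 ± 0.37 for CCL2, 3.00 ± 0.47 for CCL11, 2.29 ± 0.43 for CCL3, 1.48 ± 0.43 for CCL14 and -1.18 ± 0.53 for CCL5. For CCL17, CCL20 and CCL22 they were 0.27 ± 0.13, 0.60 ± 0.34 and 0.23 ± 0.44. No difference changed sign. At 10 days the count fell from 5 to 1 without Dealings. The ISF libraries lay wholly above the SF libraries for 2, 3, 2 and 0 of the 9 at the 4 times, and over all tested genes for 0.789%, 1.29%, 2.1% and 2.26%. The median log2 difference of the 9 was 1.10, 1.21, 1.33 and 1.15, and that of all tested genes -0.0161, -0.00268, 0 and -0.0223. Since the set was chosen by this comparison, nothing is read from these counts.

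Over time most calls fell in the interval from 0 to 48 hours. In SF 5 of 9 chemokines rose (CCL2, CCL3, CCL8, CCL11 and CCL22) and CCL5 fell, against 22.3% and 23.1% of all tested genes. In ISF, where CCL8 and CCL11 were not tested, 6 of the other 7 rose, CCL17 with the limit given above, and CCL5 fell, against 25.3% and 27.4%. From 48 to 96 hours CCL2 and CCL14 rose and CCL22 fell in ISF (8.54% and 10.4% of all genes), and CCL22 alone fell in SF (11.5% rose and 15.8% fell). In SF the count over that interval was 1 of 9, or 2 with horse as a block. From 96 hours to 6 days limma called none of 7 in ISF and none of 9 in SF, where 2.83% and 0.432% of all genes rose and 3.54% and 1.61% fell. At an unadjusted p under 0.05, 3 of 7 and 1 of 9 passed, and limma voom on recovered reads also called 0 in each. With horse as a block, the ISF count was 1, CCL2.

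From 6 to 10 days none of 7 passed in ISF by limma, by limma voom or at an unadjusted p under 0.05, where 5.09% of all genes rose and 5.44% fell. In SF CCL2 and CCL8 rose over that interval, against 3.19% and 1.59%. Over the whole course, 5 of 9 rose and CCL5 fell in SF (34.7% and 34.9% of all genes), and 4 of 7 rose and CCL5 fell in ISF (36.1% and 38.4%). CCL17 is among those 4, but it entered the test through its ISF libraries, so its rise is a description.

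The difference between the fluids was also compared between times, for the 7 tested chemokines other than CCL8 and CCL11. From 48 hours to 10 days no chemokine passed by limma or limma voom, 1 passed at an unadjusted p under 0.05, and 2.99% of all tested genes passed. From 6 to 10 days no chemokine passed by either tool, 1 passed at an unadjusted p under 0.05, and 0.226% of all genes passed. The change for CCL2 from 6 to 10 days was -1.92 ± 0.54 (FDR = 0.0870), which passed with horse as a block (FDR = 0.0443) and without Moon's SF culture (-2.15 ± 0.53, FDR = 0.0327). The change for CCL22 from 48 hours to 10 days was -2.0 ± 0.64 (FDR = 0.0648), which likewise passed with horse as a block (FDR = 0.0300) and without that library (FDR = 0.0463). For CCL8 and CCL11 the change from 6 to 10 days was -2.63 ± 0.70 and -1.20 ± 0.67, given as a description.

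CCL2, CCL8 and CCL11 varied together over the 68 libraries, with Pearson correlations of log2(GeTMM + 1) of 0.867 between CCL2 and CCL8, 0.870 between CCL2 and CCL11 and 0.907 between CCL8 and CCL11. CCL3 had correlations of 0.812 to 0.845 with each of them. CCL5 had negative correlations with all of CCL2, CCL3, CCL8, CCL11 and CCL14, from -0.600 to -0.396. The libraries share horses, fluids and times, so these values are a description. In the RefSeq gene table of the TB-T2T horse assembly, which is not the build of the expression table and was used for gene order alone, CCL8, CCL11 and CCL2 are neighbours with 1 unnamed protein-coding gene between CCL11 and CCL2. CCL22, CX3CL1 and CCL17 also lie in a row, and CCL24 adjoins CCL26. CCL14 had no entry by that symbol in that gene table. CCL22 and CCL17, though neighbours, had a correlation of 0.378.

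The tested genes closest in pattern to CCL8 by Pearson correlation were CCL11 (0.907), JAM2 (0.906) and TMEM26 (0.90), of which 1 stayed among the 3 closest by Spearman correlation. Those closest to CCL11 were TIMP1 (0.918), CCL8 (0.907) and EAF2 (0.907), of which 2 stayed. Those closest to CCL2 were PCOLCE2 (0.983), CD300H (0.958) and MSR1 (0.951), of which 1 stayed. MSR1, a macrophage scavenger receptor, is 1 of the 7 macrophage markers used here. Those closest to CCL5 were RNF144A (0.840), CTSW (0.834) and IL2RB (0.821), of which 1 stayed, and IL2RB encodes a chain of the interleukin 2 receptor of T and natural killer cells. Those closest to CCL22 were CCDC183 (0.730), LAD1 (0.721) and LCN15 (0.708), none of which stayed by Spearman correlation, and CCL22 had no read in 29 libraries. CCL24 was not tested and is left out here.

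The receptors of these chemokines were compared as genes that did not enter the choice of the set. Of 9 CC receptors, 7 were tested, and CCR8 and CCR9 were too low. CCR6, the receptor of CCL20, was higher in ISF by 1.59 ± 0.37 at 96 hours (FDR = 0.00253, 8 of 8 horses), 2.27 ± 0.37 at 6 days (FDR = 2.99e-06, 8 of 8) and 1.63 ± 0.40 at 10 days (FDR = 0.00196, 6 of 7). At 48 hours it was 0.96 ± 0.40 (FDR = 0.238, 7 of 7), or an FDR of 0.0454 with horse as a block. Its level at 6 days was 0.795 to 4.38 GeTMM in SF (median 2.30) and 4.93 to 45.7 in ISF (median 15.1), so that every ISF library exceeded every SF library. With the Dealings and Dreamer ISF cultures set aside the difference at 96 hours was 1.34 ± 0.40 (FDR = 0.0293), and with Moon's SF culture set aside that at 6 days was 2.22 ± 0.39 (FDR = 8.49e-06). CCR6 rose in ISF from 0 hours to 10 days (2.16 ± 0.39, FDR = 1.37e-06) and did not pass in SF (0.53 ± 0.39, FDR = 0.216). With horse as a block its ISF steps from 48 to 96 hours (0.96, FDR = 0.00519, 7 of 7 horses) and from 96 hours to 6 days (0.89, FDR = 0.0266, 8 of 8) passed as well.

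CCR1, a receptor of CCL3, CCL5 and CCL14, was higher in ISF at 6 days (1.46 ± 0.29, FDR = 8.51e-05, 8 of 8 horses). Moon's SF culture held 4.03 GeTMM of CCR1 there against 38.0 or more in the rest of the group, and without it the difference was 1.00 ± 0.20 (FDR = 8.71e-05). With horse as a block CCR1 also passed at 96 hours (FDR = 0.0462) and 10 days (FDR = 0.0132), and CCR4 passed as lower in ISF at 6 days (-0.37 on the log2 scale, FDR = 0.0360) and 10 days (-0.47, FDR = 0.0177). CCR1 rose from 0 to 48 hours in both fluids, by 2.28 ± 0.30 in ISF (FDR = 2.68e-09) and 1.8 ± 0.30 in SF (FDR = 1.26e-06). The block added rises of CCR1 in ISF from 48 to 96 hours (0.63, FDR = 0.0225) and in SF from 6 to 10 days (0.91, FDR = 0.0124), each in 7 of 7 horses.

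CCR2, the receptor of CCL2, did not pass between the fluids at any time (-0.80 ± 0.46 at 10 days, FDR = 0.232). It fell from 0 hours to 10 days in ISF (-2.53 ± 0.45, FDR = 1.13e-06, 7 of 7 horses) and SF (-1.73 ± 0.45, FDR = 5.61e-04, 7 of 7 horses). Its medians at 10 days were 8.05 GeTMM in SF and 5.05 in ISF, against 26.0 at 0 hours. Moon's SF culture at 6 days held 1 read of it. CCR3, the receptor of CCL11 and CCL24, fell from 0 to 48 hours in ISF (-3.14 ± 0.20, FDR = 1.79e-21) and SF (-2.68 ± 0.20, FDR = 2.24e-18), from a median of 10.97 GeTMM to 0.204 and 0.697. With the block a further fall of CCR3 passed in SF from 48 to 96 hours (-0.41, FDR = 0.0456, 7 of 7 horses). The mean of the 3 eosinophil or mast cell markers in the table had a median of 1.75 at 0 hours on the log2 scale, and 0.176 in SF and 0.200 in ISF at 48 hours. The part of these cells in the result was not tested. CCR4, the receptor of CCL17 and CCL22, had medians from 0.0544 to 0.634 GeTMM in culture, and did not pass between the fluids without the block. CCR4 fell from 0 to 48 hours in ISF (-0.55 ± 0.22, FDR = 0.0299, 7 of 7 horses). Its step in SF over that interval passed with the block alone (-0.37, FDR = 0.0191, 5 of 7 horses lower). The net change of CCR4 to 10 days was -0.99 ± 0.22 in ISF (FDR = 6.07e-05) and -0.52 ± 0.22 in SF (FDR = 0.0311), in 7 of 7 horses each. CCR7, the receptor of CCL19 and CCL21, rose from 0 to 48 hours in ISF (1.19 ± 0.33, FDR = 0.00160) and SF (1.11 ± 0.33, FDR = 0.00389) and did not pass between the fluids. It fell in ISF from 48 to 96 hours (-1.11 ± 0.33, FDR = 0.0101, 7 of 7 horses), and its net change in ISF to 10 days did not pass (0.45 ± 0.33, FDR = 0.208).

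**Figure D4:**
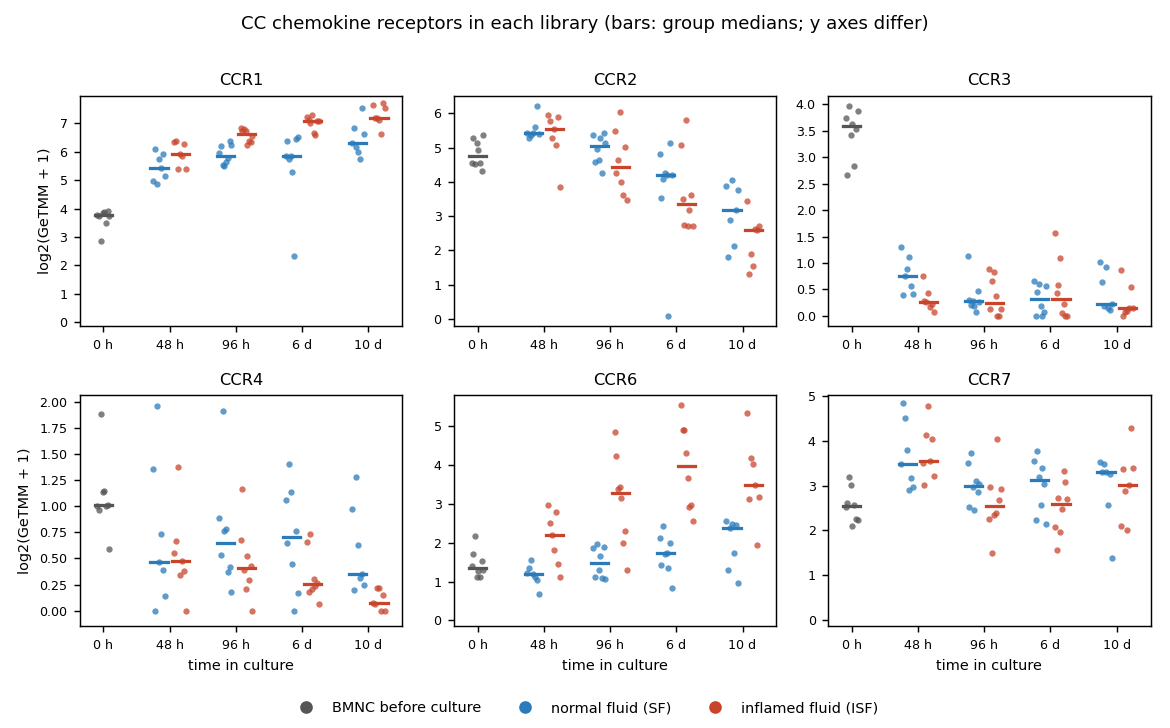
Each panel plots log2(GeTMM + 1) of 1 receptor against time in culture, with a point per library in grey (BMNC at 0 hours), blue (SF) or red (ISF) and bars at the group medians. The y axes differ between panels. CCR6 separates the fluids at 6 days (medians 2.30 and 15.1 GeTMM), CCR3 is low in both fluids from 48 hours on, and the low point of CCR1 and CCR2 in SF at 6 days is the library of Moon.

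Of the 9 CC receptors, 0, 1, 2 and 1 were higher and none lower in ISF at 48 hours, 96 hours, 6 days and 10 days, read against the shares of all genes given above. The median log2 difference of the 7 tested was 0.0797, 0.00591, -0.0779 and -0.0389. At 48 hours no receptor passed by limma or limma voom, 2 passed at an unadjusted p under 0.05, and CCR6 passed with horse as a block. Of the 5 atypical receptors, which bind chemokines without coupling to G proteins and were all tested, none passed between the fluids at any time by limma, 1, 0, 1 and 1 had an unadjusted p under 0.05, limma voom called 0, 0, 1 and 0, and ACKR3 passed as lower in ISF at 10 days with the block (-0.84 on the log2 scale, FDR = 0.0321). Of 14 other CC chemokine symbols 5 were in the table and CCL19 and CCL26 were tested. CCL26 was lower in ISF at 6 days (-1.75 ± 0.53, FDR = 0.00835, 5 horses lower and 1 higher of 8), a call lost without Flash (FDR = 0.0802) and when only these groups were fitted (FDR = 0.188). CCL26 reached 0.5 GeTMM in 12 of the 68 libraries and had risen in SF from 96 hours to 6 days (1.99 ± 0.53). Whether it entered the test through SF, where it was high, was not checked, so its difference is a description. Among 11 signalling genes, 10 of them tested, GNAI2 and GNB1, which encode G protein subunits, were higher in ISF at 6 days (0.48 ± 0.10, FDR = 1.24e-04, and 0.33 ± 0.08, FDR = 0.00113). Without Moon's SF culture these were 0.42 ± 0.09 and 0.27 ± 0.08 (FDR = 4.17e-04 and 0.00361), and that of CCL26 was -2.06 ± 0.53 (FDR = 0.00179). At 10 days ARRB2 and DOCK2, an arrestin and an activator of Rac in migrating leukocytes, were lower (-0.58 ± 0.17, FDR = 0.0105, and -0.76 ± 0.18, FDR = 0.00129). The call of ARRB2 was lost without Dealings (FDR = 0.0507). Of the 10 tested signalling genes 2 were thus higher at 6 days and 2 lower at 10 days. Of all tested genes 16.7% were higher at 6 days and 10.8% lower at 10 days, and nothing is read from these counts. GRK2, a kinase that acts on activated receptors, passed as lower in ISF with the block alone at 6 days (-0.35, FDR = 0.0238, 6 of 8 horses) and 10 days (-0.39, FDR = 0.0228, 6 of 7). The block also added falls from 0 to 48 hours of ARRB1 in ISF (-0.35, FDR = 0.0331, 6 of 7 horses) and of DOCK2 in SF (-0.33, FDR = 0.0268, 7 of 7), and changes of the fluid difference from 6 to 10 days of GNAI2 (-0.52, FDR = 0.0364) and DOCK2 (-0.84, FDR = 0.0294).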

How the data were processed

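RNA was sequenced from BMNC at 0 hours and after culture in SF or ISF. Reads were trimmed, aligned to EquCab 3.0 with STAR 2.7.2a and counted by gene by the authors, who deposited GeTMM values, an RPKM-like unit on a linear scale with TMM library factors. For the present results, log2(GeTMM + 1) was tested with limma 3.58.1 (R 4.3.3, trended eBayes) over 14570 genes that reached 0.5 GeTMM in 7 or more libraries. All 9 groups entered 1 fit with no term for horse, since the authors state none. Calls were made at a two-sided Benjamini-Hochberg FDR under 0.05 over all tested genes. A difference on this scale understates the change of low genes. The horse is the replicate.

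Reads per gene were recovered from the steps between values. All 24065 entries above 0 gave whole reads within a tolerance of 0.02 (100%), and limma voom on these reads was an alternative. Reads are not independent molecules, so limits from a count of 0 cover counting error only. On simulated data of 14570 genes, the fit for ISF against SF at 48 hours called 48% of genes changed by 2 standard deviations and 100% of those changed by 4. For the change of the fluid difference from 48 hours to 10 days these shares were 22% and 96%. From 6 to 10 days they were 15% and 95%, and 8.33% of the calls were false.

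The pairing comes from the animals, since the same horses supplied both fluids at each time. The SF and ISF deviations of a horse had median correlations of 0.452, 0.455, 0.268 and 0.207 at the 4 times, against -0.115 to -0.0300 between horses. The value with horse as a block is given where it changes a call.

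The members, gene lists and tests were chosen with earlier results of these data known. All 10 members are named, and listed genes where they were called between the fluids at 2 or more times or are a receptor of a member. CCL26, GNAI2, GNB1, ARRB2, DOCK2, ACKR3, GRK2, ARRB1 and CCR7 were named after their values were seen. One listed gene is not reported here and was left out of the list counts. The 3 genes closest in pattern were taken by Pearson correlation. Python 3.11.15, numpy 2.4.6, pandas 2.3.3, scipy 1.17.1 and matplotlib 3.10.9 were used. The alternatives were a pseudocount of 0.1, no filter, a horse block, a fit of the compared groups only, library weights, limma voom, an FDR of 0.01, setting aside named libraries and leaving out each horse.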

Additional observations from a re-analysis of the deposited data

Results flagged for a closer look

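In 9 of 90 combinations of a member and a group, 1 library stood far from the others by Dixon's gap ratio on the log2 scale. Chance gives about 1 in 20 for normally spread values. Several of the combinations held libraries at 0 reads, where that rate does not hold, so the count is not set against it. Catnip had the highest CCL2 at 0 hours (1.59 GeTMM, others 0.0553 to 0.591) and in SF at 96 hours (607.1, others 212.8 to 284.6). CCL11 was high in Lurie at 0 hours (0.0560, 1 read, others 0) and in SF at 48 hours (7.26, others 1.61 to 3.17), and in Ollie in SF at 10 days (43.1, others 10.2 to 19.2). CCL17 was high in SF in Dealings at 48 hours (0.369 GeTMM, 9 reads) and in Moon at 6 days (1.24, 16 reads). CCL20 was high in Lurie in SF at 10 days (2.05, 10 reads) and CCL22 in Ollie in SF at 6 days (1.15, 5 reads).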

How the results depend on the processing

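No called value reversed direction under any alternative run. CCL20 between the fluids at 10 days, which was not called, went from 0.05 to -0.08 on the log2 scale without Ollie. With horse as a replicate block, the members called between the fluids at 48 and 96 hours went from 3 and 5 to 5 and 8, and with library weights to 6 and 8. Without Moon's SF culture the count at 48 hours was 5, and at an FDR of 0.01 that at 10 days went from 5 to 2. Of the listed pathway genes, 0, 1, 5 and 3 were called at the 4 times. Of all tested genes 0.872%, 6.16%, 16.7% and 9.95% were higher and 0.81%, 4.3%, 13.6% and 10.8% lower at these times. Nothing is read from the pathway counts. The block gave 1 at 48 hours, 2 at 96 hours and 7 at 10 days, and library weights gave 4, 3, 9 and 6. At 96 hours a fit of the compared groups gave 2, as did leaving out Moon's SF culture. At 10 days a fit of the compared groups gave 6, limma voom 5 and leaving out Moon's SF culture 5.

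Over time, the ISF count from 96 hours to 6 days went from 0 to 1 with the block, with library weights, without Moon's SF culture and without the Dealings and Dreamer ISF cultures. The SF count from 48 to 96 hours went from 1 to 2 with the block, with library weights and with no filter, and to 0 at an FDR of 0.01. The SF count from 6 to 10 days went from 2 to 1 at an FDR of 0.01 and to 0 in a fit of the compared groups. For both changes of the fluid difference the count went from 0 to 1 with the block, with library weights and without Moon's SF culture. The cause was not tested.

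Leaving out 1 horse at a time, members called between the fluids numbered 2 to 5, 4 to 6, 4 to 6 and 1 to 6, with 1 at 10 days without Dealings. Listed pathway genes numbered 0, 1 to 2, 5 to 6 and 2 to 6. The SF counts were 0 to 1 from 48 to 96 hours and 0 to 2 from 6 to 10 days, and both changes of the fluid difference gave 0 to 1. Of 82 single values, 7 lost their call at an FDR of 0.01, 4 in a fit of the compared groups and 1 with library weights, and 21 of 656 did without 1 horse. The block ended no call among them and added 2, and 0 lost their call without Moon's SF culture or without the Dealings and Dreamer ISF cultures. The differences of the chemokines between the fluids, and CCL8 and CCL11 in ISF over time, were compared by size alone. Losses of their calls are therefore not among these numbers. The counts of chemokines called between the fluids fell in some of these runs, as given above. With the pseudocount of 0.1 and with limma voom 7 values each moved by more than the spread between replicates, for CCL11 in ISF from 0 hours, CCL17 between the fluids at each time and CCL22 between the fluids at 96 hours, all to a larger difference of the same sign. Depth limits the values of CCL17, CCL20, CCL22 and CCL24 in libraries with few reads.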
